A study of Mus musculus with 4 samples.

Results

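The 10 genes described here are the core members of bone morphogenetic protein (BMP) signalling in mouse embryonic stem cells (mESCs) and the ID genes downstream of it. They were taken as a list of gene symbols, and all 10 were found among the 37620 genes of the count table. Bmp4 and Bmp7 encode ligands, Bmpr1a and Bmpr2 a type I and a type II receptor, Smad1 and Smad5 the signal carriers, Smad6 an inhibitory SMAD, and Id1, Id2 and Id3 the target genes. BMP ligands are secreted dimers of the TGF-beta superfamily that bring type I and type II receptor kinases together. The activated type I receptor phosphorylates SMAD1, SMAD5 and SMAD9, which enter the nucleus with SMAD4 and bind DNA, while SMAD6 and SMAD7 act as feedback inhibitors. ID proteins are helix-loop-helix proteins without a DNA-binding basic region, and they hold E proteins away from their target genes. In mESC culture, BMP from serum or added protein acts together with LIF, and ID genes are known as targets through which BMP restrains neural differentiation.

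The RNA came from mESCs of the WT_CTCF and MUT_CTCF lines, with 2 libraries per line that the methods describe as biological replicates. Both lines came from CTCF-EGFP-AID mESCs, in which the tagged endogenous CTCF is degraded with 0.5 mM auxin, given for 2 days in the cell culture methods. Each line carried a vector for either wild-type CTCF or CTCF with the T668A change, which removes the threonine that carries O-GlcNAc, and was selected with hygromycin B. Each line was a picked clone with exogenous CTCF near the endogenous level, so clone and CTCF form cannot be told apart here, and the promoter of the vector is not given in the sources used here. The cells of both lines were kept in 15% serum and 1000 U/mL LIF on gelatin, and the comparison asks whether expression differed when CTCF could not be modified at T668.

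Total counts lay between 40524694 and 40977464 per library, and gene counts do not show the T668A change, so the labels were taken as given. The pluripotency markers Pou5f1, Sox2, Nanog, Zfp42 and Esrrb summed to between 180099 and 180752 normalized counts in all 4 libraries, though its members did not share 1 direction. Sox2 rose (log2 fold change 0.095, adjusted p = 0.0358 by edgeR), while Pou5f1 (-0.071) and Zfp42 (-0.060) lay below 0 without passing. Of markers of other cell types, the 4 primitive endoderm genes (Gata4, Gata6, Sox17, Pdgfra) summed to 399.6 and 388.9 normalized counts in WT_CTCF and 442.2 and 666.2 in MUT_CTCF, all 4 with log2 fold changes of MUT_CTCF over WT_CTCF above 0 and 0 past an adjusted p of 0.05. Gata6 lay nearest to passing, with 57.1 and 50.1 in WT_CTCF and 98.1 and 108.5 in MUT_CTCF (log2 fold change 0.95, adjusted p = 0.0733 by edgeR). The 4 trophoblast genes (Cdx2, Eomes, Elf5, Krt7) summed to 603.0 and 545.3 in WT_CTCF and 398.5 and 413.0 in MUT_CTCF. All 4 had log2 fold changes below 0, and Cdx2 alone of them passed, with a value of -0.97 (standard error, SE, 0.177 and adjusted p = 0.000227 by the quasi-likelihood test of edgeR). The sums of the 4 mesendoderm genes (T, Mixl1, Gsc, Foxa2) lay at 659.0 and 742.7 against 661.2 and 634.0, and those of the 6 fibroblast genes (Col1a1, Col1a2, Col3a1, Thy1, Postn, Lum) at 880.4 and 908.1 against 959.7 and 1023, with Lum at 0 counts in every library. Most of the fibroblast sum came from Thy1, with 596.9 and 655.5 in WT_CTCF and 694.0 and 747.6 in MUT_CTCF (log2 fold change 0.20, adjusted p = 0.334 by edgeR). Col3a1 went against that sum, with 26.0 and 23.1 normalized counts in WT_CTCF and 11.9 and 5.02 in MUT_CTCF, and met the study's criterion (unadjusted p under 0.05 and a fold change above 2) but no adjusted p under 0.05. The 3 neural ectoderm genes in the table (Pax6, Fgf5, Pax3) summed to at most 20.8 normalized counts in a library, with Fgf5 at 0. The part of these other cells in the results below was not tested, and in bulk RNA fewer cells of a type and less RNA per cell cannot be told apart.

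None of the 10 genes passed an adjusted p under 0.05 between the lines, the limit that 515 of 16264 tested genes, or 3.17%, passed. Id3, Smad1 and Id2 lay nearest to it. Id2 and Id3 had the lowest log2 fold changes of MUT_CTCF over WT_CTCF, -0.37 and -0.28, followed by Bmp4 at -0.20 and Id1 at -0.19, and all 4 were lower in each MUT_CTCF library than in each WT_CTCF library. Smad1 had the highest value, 0.23. At an unadjusted p under 0.05, which 15.3% of all tested genes reached (7.61% higher and 7.65% lower), 3 of the 10 genes were found by edgeR (Smad1, Id2, Id3) and 2 by DESeq2 (Smad1, Id3), and DESeq2 called 0 at an adjusted p under 0.05. With the study's criterion, an unadjusted p under 0.05 and a fold change above 2, 0 of the 10 were called, against 1.3% of all tested genes (0.947% higher and 0.357% lower). Of the 10 genes, 7 had a log2 fold change below 0 and 3 above 0, with a median of -0.10 beside 0.0034 for all tested genes. Among all tested genes, 7997 lay below 0 and 8267 above. Both MUT_CTCF libraries lay below both WT_CTCF libraries for 5 of the 10 (Bmp4, Bmpr1a, Id1, Id2, Id3), where 22.3% of all tested genes did so, and above them for 1 (Smad1), where 22.3% did so. The 10 genes were chosen with earlier results of these data known, so none of these shares tests whether the list differs from other genes. With 2 libraries a line, the smallest two-sided p of an exact permutation test is 0.333, and the p-values therefore rest on edgeR's estimate of the spread across genes.

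**Figure D1:**
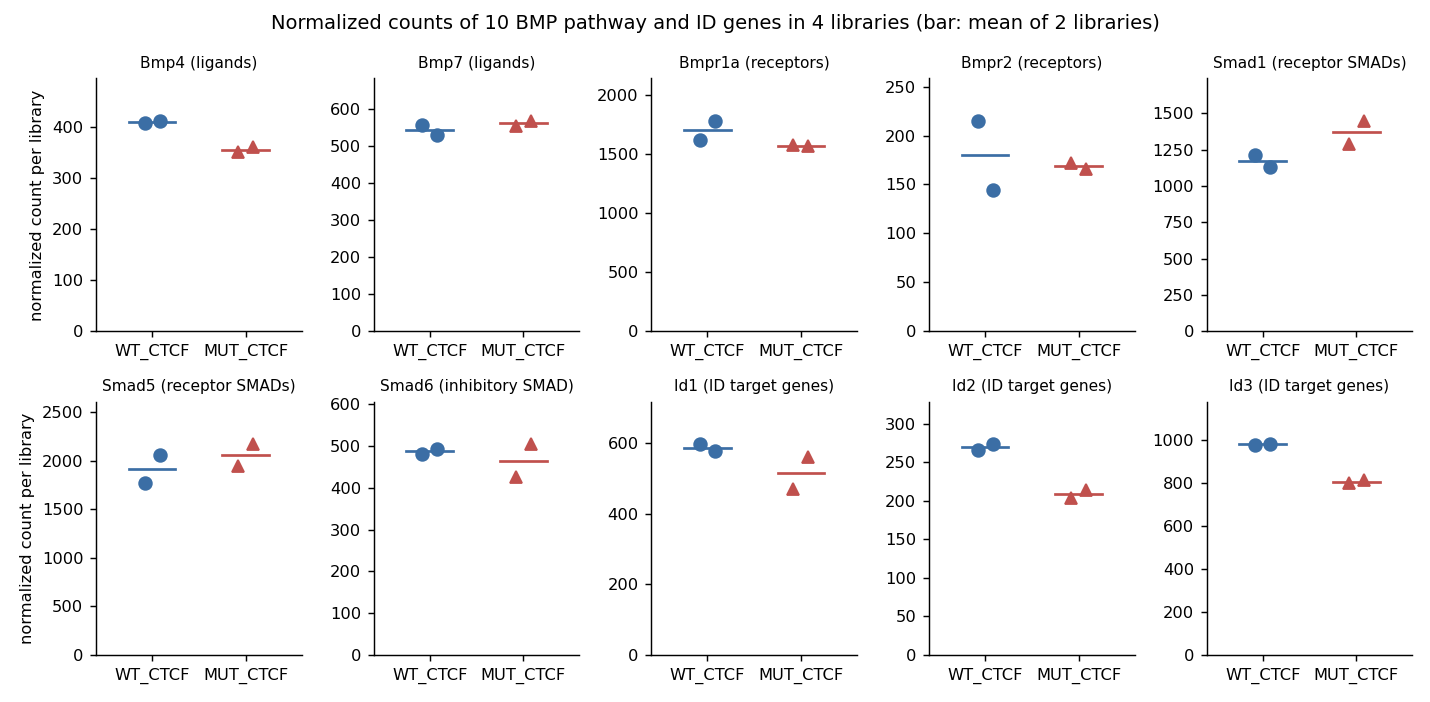
Normalized counts of each of the 10 genes, on axes that start at 0, in the 2 WT_CTCF libraries (blue circles) and the 2 MUT_CTCF libraries (red triangles), with bars at the mean of each line. The groups are apart for Bmp4, Bmpr1a, Smad1, Id1, Id2 and Id3, and the widest gap between replicates for its level is that of Bmpr2 in WT_CTCF.

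Levels were compared between genes per kilobase of exon, as RPKM. Id3 and Id1 were the most expressed of the 10, and Bmpr2 the least. In WT_CTCF mESCs, Id3 had an RPKM of 13.4 ± 0.017 and Id1 of 12.4 ± 0.293 (SD, n = 2), against a median of 3.92 over the 16243 tested genes with an annotated length. Bmpr1a (6.57 ± 0.455) and Smad5 (6.32 ± 0.671) followed, with overlapping libraries, and then Id2 (5.21 ± 0.0985), Smad1 (4.94 ± 0.260), Bmp4 (4.51 ± 0.0415), Smad6 (3.81 ± 0.0740) and Bmp7 (3.31 ± 0.119). Bmpr2 stood last with 1.26 ± 0.351 (SD, n = 2). In this line all neighbours in the order other than Bmpr1a and Smad5 had libraries that did not overlap.

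In MUT_CTCF mESCs the order of the RPKM values was Id3, Id1, Smad5, Bmpr1a, Smad1, Id2, Bmp4, Smad6, Bmp7 and Bmpr2. Smad5 thus stood above Bmpr1a, and Smad1 above Id2. The libraries of Id3 and Id1 overlapped here, as did Bmpr1a with Smad1, Id2 with Bmp4, Bmp4 with Smad6, and Smad6 with Bmp7. The summed RPKM of Id1, Id2 and Id3 was 31.1 and 30.9 in WT_CTCF and 24.8 and 27.1 in MUT_CTCF. Adding Id4, the fourth gene of the family, gave 34.4 and 34.2 against 27.9 and 31.6. Both sums were lower in each MUT_CTCF library, but most of each sum came from Id3 and Id1, and Id4 by itself had overlapping groups. Id1, Id2 and Id3 were each lower in both MUT_CTCF libraries, so their sum had to be lower and adds no further result.

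**Figure D2:**
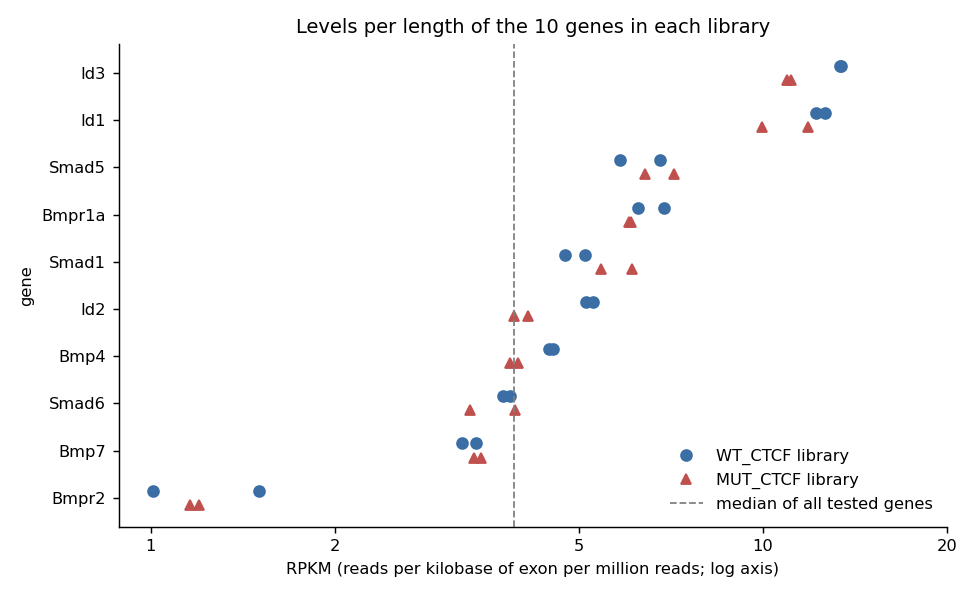
RPKM of the 10 genes in each library, on a log axis, with the median of all tested genes (3.92) as a dashed line. Id3 and Id1 sit at the right, at or above 9.95 RPKM in every library, and Bmpr2 at the left, at or below 1.51.

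The ID genes were taken first, since their levels are a common readout of BMP signalling. Id3 (chr4:135699412-135701670, mm9, plus strand) had 977.6 and 979.3 normalized counts in WT_CTCF mESCs and 799.0 and 812.9 in MUT_CTCF mESCs. Both MUT_CTCF libraries were low, and the gap between the lines was wider than the gap within either. Its log2 fold change was -0.28 (SE 0.089, 95% interval -0.46 to -0.10, adjusted p = 0.0703 by edgeR), a fold of 0.824 that did not pass. Leaving out any 1 library left it between -0.29 and -0.27. At the precision of Id3, a log2 fold change of 0.30 in size would have reached 0.00157, the largest unadjusted p that still passed among all tested genes.

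Id2 (chr12:25778666-25780957, minus strand) had 266.4 and 273.6 normalized counts in WT_CTCF and 203.2 and 214.0 in MUT_CTCF. The groups did not overlap, and its fold of 0.773 was the lowest of the 10 genes. The log2 fold change was -0.37 (SE 0.164, 95% interval -0.70 to -0.044, adjusted p = 0.256 by edgeR), and a size of 0.54 would have been needed to pass. Id1 (chr2:152561987-152563146, plus strand) had 596.9 and 577.4 normalized counts in WT_CTCF and 470.9 and 561.7 in MUT_CTCF. Only replicate 1 of MUT_CTCF was far below the WT_CTCF libraries, and replicate 2 lay just under them. Its log2 fold change was -0.19 (SE 0.114, 95% interval -0.41 to 0.042, adjusted p = 0.467 by edgeR). Leaving out MUT_CTCF replicate 1 gave -0.064, and leaving out replicate 2 gave -0.32.

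The promoter sequences of Id2, Id3 and Smad1 are shown because these 3 genes had the smallest p-values, in 2 directions. They run from 250 bases before to 50 after the start of transcription, on the strand of the gene, in the RefSeq windows of GRCm38.p6, a later build than that of the counts. Capitals mark GGCGCC, a GC-rich motif bound by SMAD1 and SMAD5, and CAGAC, the SMAD box, searched on both strands, so that CAGAC also matches as GTCTG. The motifs do not overlap each other in these windows, and Smad1 has no capitals.
Id2 (chr12:25096043-25096342, minus strand): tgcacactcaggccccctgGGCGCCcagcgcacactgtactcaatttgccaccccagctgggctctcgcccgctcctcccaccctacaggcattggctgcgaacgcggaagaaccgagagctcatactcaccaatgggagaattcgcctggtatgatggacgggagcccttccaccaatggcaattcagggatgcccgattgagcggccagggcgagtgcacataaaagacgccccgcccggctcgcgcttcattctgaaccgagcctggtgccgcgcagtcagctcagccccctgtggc
Id3 (chr4:136143572-136143871, plus strand): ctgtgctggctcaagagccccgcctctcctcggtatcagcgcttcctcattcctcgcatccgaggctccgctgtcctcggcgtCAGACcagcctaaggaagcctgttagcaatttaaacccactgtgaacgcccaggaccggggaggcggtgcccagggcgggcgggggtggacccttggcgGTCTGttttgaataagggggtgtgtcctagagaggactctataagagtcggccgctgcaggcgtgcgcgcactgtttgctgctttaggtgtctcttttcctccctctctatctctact
Smad1 (chr8:79399379-79399678, minus strand): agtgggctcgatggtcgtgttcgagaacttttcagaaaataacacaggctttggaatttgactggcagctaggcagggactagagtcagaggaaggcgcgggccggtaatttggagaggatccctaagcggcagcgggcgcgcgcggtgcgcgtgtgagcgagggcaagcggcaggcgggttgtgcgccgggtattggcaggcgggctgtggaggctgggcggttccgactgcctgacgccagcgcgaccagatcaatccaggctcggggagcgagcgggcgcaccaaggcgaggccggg
Id2 held GGCGCC once, from base 20 of the window, counted from 1 at its 5′ end, and Id3 held the SMAD box from base 84 and, as GTCTG, from base 183. Windows were found for 8 of the 10 genes, without Bmp7 and Id1. GGCGCC stood in at least 1 window of 4 of these 8 (Bmpr1a, Bmpr2, Smad5, Id2), against 11.9% of all 32851 promoter windows, and CAGAC in 2 of the 8 (Smad5, Id3), against 49.6%. The 8 genes had 10 windows and were counted by gene, while the shares of all windows count single windows, so the 2 are not alike. GC content was not matched, and whether a motif is enriched was not tested. These matches describe the letters in the windows only.

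Of the receptor SMADs, which carry the signal to the nucleus, both had log2 fold changes above 0. Smad1 (chr8:81862294-81923417, minus strand) had 1215 and 1128 normalized counts in WT_CTCF and 1292 and 1450 in MUT_CTCF. Both MUT_CTCF libraries were high, and the lower of them lay close to the higher WT_CTCF library. The log2 fold change was 0.23 (SE 0.078, 95% interval 0.071 to 0.38, adjusted p = 0.106 by edgeR), with 0.14 without MUT_CTCF replicate 2 and 0.31 without MUT_CTCF replicate 1. A size of 0.26 would have been needed to pass.

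Smad5 (chr13:56804371-56843738, plus strand) had 1770 and 2057 normalized counts in WT_CTCF and 1943 and 2169 in MUT_CTCF, so that the groups overlapped. Its log2 fold change was 0.10 (SE 0.067, adjusted p = 0.502), and -0.00095 without WT_CTCF replicate 1. Smad6 (chr9:63800953-63869866, minus strand), the inhibitory SMAD, had 480.8 and 494.2 normalized counts in WT_CTCF and 425.3 and 504.4 in MUT_CTCF. The MUT_CTCF libraries of Smad6 lay on either side of the WT_CTCF libraries, with a log2 fold change of -0.069 (SE 0.121, adjusted p = 0.864) that was 0.049 without MUT_CTCF replicate 1.

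Among the ligands, Bmp4 (chr14:47003195-47010344, minus strand), the BMP commonly added to serum-free mESC culture, had 406.6 and 412.0 normalized counts in WT_CTCF and 350.0 and 360.7 in MUT_CTCF. The replicates lay close together and the groups did not overlap. The log2 fold change of Bmp4 was -0.20 (SE 0.131, 95% interval -0.47 to 0.058, adjusted p = 0.495 by edgeR), and a size of 0.43 would have been needed to pass. Bmp4 shares 89 exon bases with Gm15217 on the opposite strand, which had at most 5 counts in a library. Bmp7 (chr2:172693513-172765822, minus strand), a ligand of the same family, had 556.9 and 529.2 normalized counts in WT_CTCF and 553.2 and 567.7 in MUT_CTCF. Its groups overlapped, and the log2 fold change was 0.045 with a 95% interval from -0.18 to 0.27 (adjusted p = 0.907), and it was 0.0081 without WT_CTCF replicate 2.

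Of the receptors, Bmpr1a (chr14:35223920-35316527, minus strand), the main type I receptor for BMP4, had 1619 and 1785 normalized counts in WT_CTCF and 1576 and 1568 in MUT_CTCF. The MUT_CTCF libraries lay just below the lower WT_CTCF library, and the gap between the WT_CTCF replicates was wider than that step. The log2 fold change of Bmpr1a was -0.11 (SE 0.069, 95% interval -0.25 to 0.024, adjusted p = 0.459 by edgeR), with -0.043 without WT_CTCF replicate 2. Bmpr1a shares 290 exon bases with Gm17110 on the opposite strand, which had at most 1 count. Bmpr2 (chr1:59821481-59927703, plus strand), the type II receptor gene among the 10, had 215.3 and 144.3 normalized counts in WT_CTCF and 171.5 and 165.8 in MUT_CTCF. The MUT_CTCF libraries fell between the WT_CTCF libraries. Its log2 fold change was -0.093 with a 95% interval from -0.49 to 0.31 (adjusted p = 0.894), and leaving out WT_CTCF replicate 1 gave 0.22 while leaving out replicate 2 gave -0.35.

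**Figure D3:**
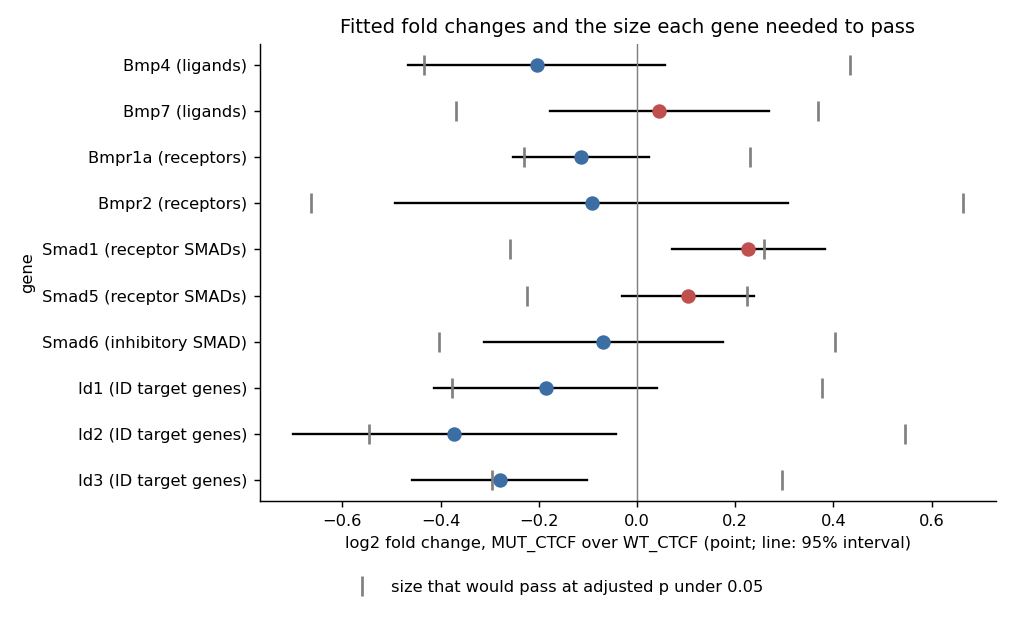
Log2 fold changes of MUT_CTCF over WT_CTCF (points, red above 0 and blue below) with 95% intervals for the 10 genes, by role. Grey ticks mark the size that each gene would have needed to pass an adjusted p under 0.05, and the point of Id3 (-0.28) lies nearest to its tick.

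The spread between the replicates was set beside counting error, and each value rests on 2 libraries and is imprecise. A value below counting error therefore does not by itself mark a gene as steady. Of 20 values for a gene in a line, the coefficient of variation was below that of counting error alone in 12 and above 2 times that error in 7. The 7 were Bmpr1a and Bmpr2 in WT_CTCF, Smad5 in both lines, and Smad1, Smad6 and Id1 in MUT_CTCF. The same counts were not made over all tested genes, so whether they are usual for these libraries was not tested. Bmpr2 in WT_CTCF varied by 27.9%, where counting alone would give 7.46%. Id3, in contrast, varied by 0.126% in WT_CTCF and 1.21% in MUT_CTCF, where counting alone would give 3.20% and 3.52%. For such genes edgeR draws the spread of each gene toward that of other genes. The fold changes of the 3 ID genes, Bmp4, Bmp7, Bmpr1a and Smad1 kept their direction with any library left out. Apart from Bmp7, the groups of these genes did not overlap, so leaving out 1 library could hardly turn their signs. The signs of Bmpr2, Smad5 and Smad6 turned with 1 library left out each.

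**Figure D4:**
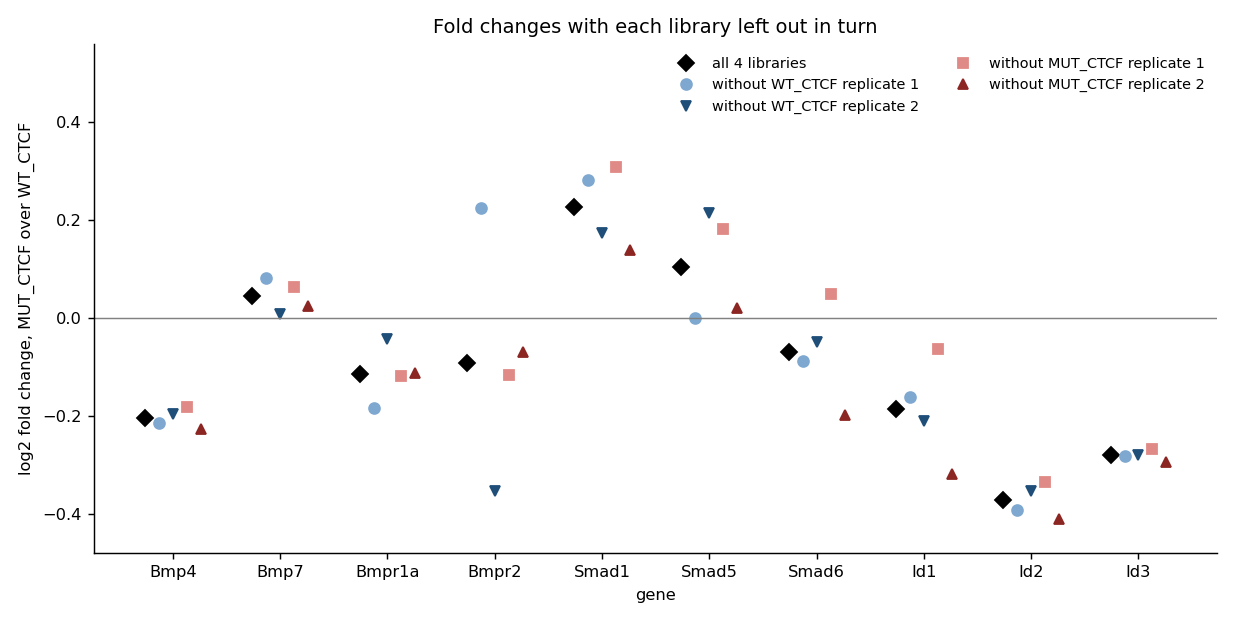
Log2 fold changes of the 10 genes from all 4 libraries (black diamonds) and with each library left out in turn (blue, a WT_CTCF library left out, red, a MUT_CTCF library left out). Id3 stays between -0.29 and -0.27, while Bmpr2 runs from -0.35 to 0.22.

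A list of 64 other genes of the pathway was set beside the 10, and 50 of them had enough counts to be tested. Of these 50, 0 rose and 1 fell at an adjusted p under 0.05, where 1.56% and 1.61% of all tested genes did. Their log2 fold changes were above 0 for 32 and below 0 for 18, with a median of 0.050. Among all tested genes, 8267 lay above 0 and 7997 below. This list too was chosen with earlier results of these data known. The gene that fell was Eng, which encodes endoglin, a co-receptor for BMP9, BMP10 and TGF-beta. Eng had 3982 and 4051 normalized counts in WT_CTCF and 3498 and 3574 in MUT_CTCF, a log2 fold change of -0.18 (SE 0.048, adjusted p = 0.0171 by edgeR). Eng shares 124 exon bases with Ak1 on the same strand, which had 5168 and 5038 counts in WT_CTCF and 4391 and 4504 in MUT_CTCF, and 61 with Fpgs on the opposite strand. This log2 fold change stayed between -0.20 and -0.17 in all 10 alternatives, but the call was lost in DESeq2 (adjusted p = 0.0511, range over the alternatives 0.0064 to 0.484), with all genes kept and with any library left out, settings in which 0 to 245 of all genes passed.

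None of the 7 tested ligands of the list passed. Gdf3, a ligand of pluripotent cells, was the most expressed at an RPKM of 58.3 ± 0.394 in WT_CTCF and 58.0 ± 1.92 in MUT_CTCF (SD, n = 2), with a log2 fold change of -0.0084 (adjusted p = 0.961 by edgeR). Bmp6 had 44.1 and 44.1 normalized counts in WT_CTCF and 89.2 and 53.3 in MUT_CTCF, a log2 fold change of 0.69 (adjusted p = 0.368) that was 0.27 without MUT_CTCF replicate 1. Bmp6 shares 236 exon bases with Txndc5 on the opposite strand, which had 7435 and 7354 counts in WT_CTCF and 8052 and 7461 in MUT_CTCF. The strand used in counting is not given, and whether Txndc5 reads entered the Bmp6 count was not tested. The level of Gdf3 was thus far above those of Bmp4 and Bmp7, per length.

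None of the 7 SMADs and SMAD regulators of the list passed either. Smad7, the other inhibitory SMAD, had 5452 and 5267 normalized counts in WT_CTCF and 4998 and 4961 in MUT_CTCF, with groups that did not overlap and a log2 fold change of -0.11 (SE 0.042, adjusted p = 0.186 by edgeR). Tob1, which restrains BMP SMADs, was the most expressed of this group at an RPKM of 37.8 ± 0.230 in WT_CTCF (SD, n = 2), and its log2 fold change was 0.015. Smad9, the remaining receptor SMAD and named after its values were seen, had 107.2 and 105.2 normalized counts in WT_CTCF and 153.7 and 145.7 in MUT_CTCF, a log2 fold change of 0.49 (SE 0.230, adjusted p = 0.290). Smad1, Smad5 and Smad9, the receptor SMADs of the BMP branch, had log2 fold changes above 0, and both inhibitory SMADs lay below 0. None of them passed, and the signs of Smad5 and Smad6 turned with 1 library left out. Smad4, the partner of the receptor SMADs and named after its values were seen, also lay above 0 (0.095, adjusted p = 0.341 by edgeR). Among all 16264 tested genes, 8267 lay above 0 and 7997 below, so these signs alone do not show a pattern of the pathway.

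Of 13 tested antagonists and ligand-processing proteases, 0 passed an adjusted p under 0.05. Tll1, a tolloid protease that cleaves the BMP antagonist chordin, was the only gene of the 50 called by the study's criterion. It had 13 and 22 counts in WT_CTCF and 2 and 7 in MUT_CTCF, a log2 fold change of -1.93 (SE 0.851, adjusted p = 0.255 by edgeR), so it rests on few reads, and the criterion did not call it in DESeq2. Twsg1, an extracellular modulator of BMP, had the highest RPKM of the group at 6.55 ± 0.639 in WT_CTCF (SD, n = 2) and a log2 fold change of 0.14 (adjusted p = 0.418), with 0.048 without WT_CTCF replicate 1 and 0.25 without WT_CTCF replicate 2.

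Among 10 other target genes, 7 had log2 fold changes above 0 and 3 below, and 0 passed. Msx2, a homeobox gene induced by BMP in many tissues, had the smallest p of them. It had 622.0 and 694.6 normalized counts in WT_CTCF and 473.9 and 559.7 in MUT_CTCF, without overlap. Its log2 fold change was -0.35 (SE 0.111, adjusted p = 0.0705 by edgeR), between -0.48 and -0.23 with 1 library left out. Dlx3, another homeobox gene and named after its values were seen, went the other way, with 119.2 and 151.4 normalized counts in WT_CTCF and 198.3 and 188.9 in MUT_CTCF and a log2 fold change of 0.52 (SE 0.202, adjusted p = 0.173). Dusp9, a phosphatase of ERK that BMP induces in mESCs, was the most expressed at an RPKM of 40.1 ± 1.34 in WT_CTCF and 40.8 ± 1.36 in MUT_CTCF (SD, n = 2), with a log2 fold change of 0.024 and a 95% interval from -0.067 to 0.12. Id4, named after its values were seen, had 220.3 and 224.5 normalized counts in WT_CTCF and 212.2 and 303.4 in MUT_CTCF, a log2 fold change of 0.21 (adjusted p = 0.625) with overlapping groups, and it shares 171 exon bases with A330033J07Rik on the opposite strand. The target genes therefore did not share 1 direction.

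The E proteins that ID proteins bind did not pass. Tcf3, which encodes E12 and E47, was the most expressed at an RPKM of 55.7 ± 0.275 in WT_CTCF and 54.6 ± 3.90 in MUT_CTCF (SD, n = 2), above every ID gene per length. For Tcf3 the log2 fold change was -0.029 with a 95% interval from -0.10 to 0.045. Tcf12 had 1222 and 1325 normalized counts in WT_CTCF and 1518 and 1293 in MUT_CTCF, a log2 fold change of 0.14 (adjusted p = 0.393 by edgeR) with overlapping groups. Leaving out 1 library gave 0.022 (MUT_CTCF replicate 1) to 0.25 (MUT_CTCF replicate 2).

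Of the 64 genes, 14 were too low to be tested, with at most 8 counts in any library. Among them were the ligand genes Bmp3, Bmp5, Bmp10, Gdf2, Gdf5 and Gdf6, the type I receptor gene Bmpr1b and the antagonist gene Cer1, and 3 of the 14 had 0 counts in every library. A count of 0 still allows up to 3 counts, or up to 0.0740 CPM in the smallest library, for counting error only. Changes below that bound were thus not detectable at this depth. The rest of the 14 had some reads but did not pass the filter, so changes in them were not tested.

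**Figure D5:**
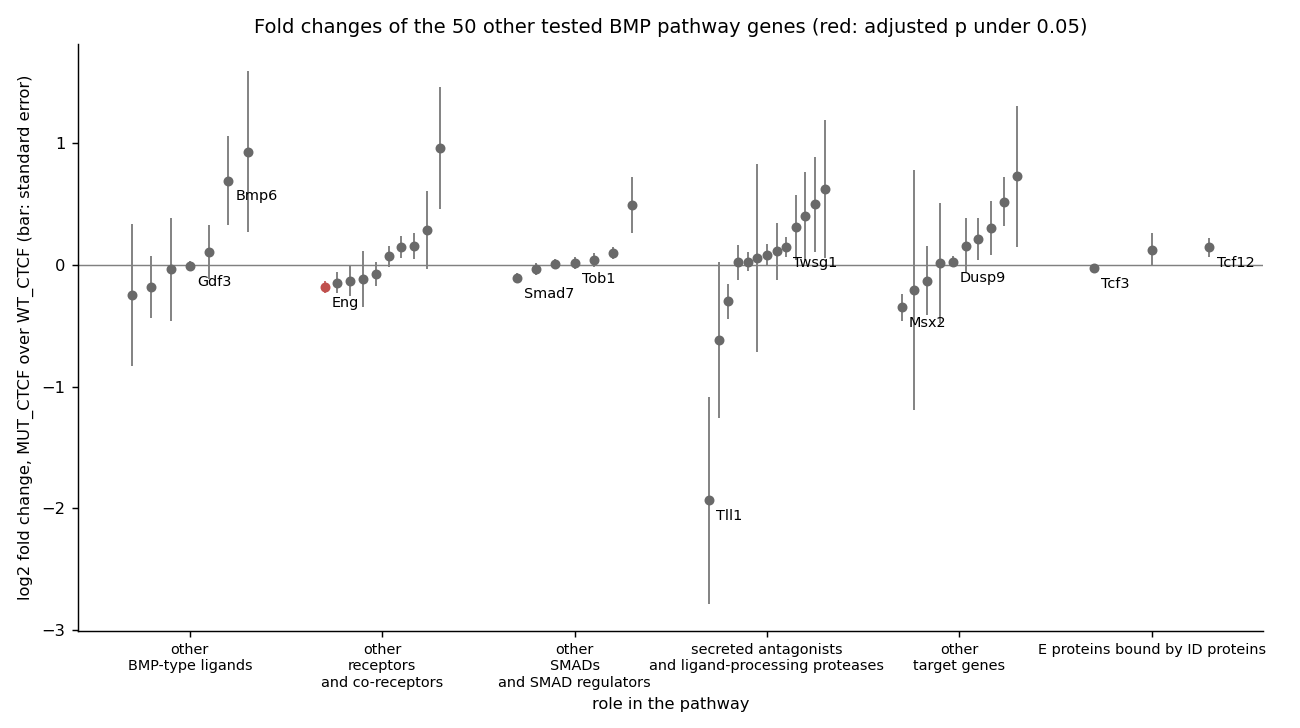
Log2 fold changes of MUT_CTCF over WT_CTCF with standard errors for the 50 other tested pathway genes, by role, with named genes labelled. Eng (red, -0.18) is the gene with an adjusted p under 0.05, and Tll1 (-1.93) has the lowest value and a wide error.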

How the data were processed

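RNA-seq was available for 2 WT_CTCF and 2 MUT_CTCF libraries. Per the submitters' processing notes and the methods, reads were trimmed (Trim Galore 0.4.4) and mapped by STAR to mm9, and the authors deposited raw counts per gene of uniquely mapped reads, made with HTSeq 0.9.1. The annotation and the strand used in counting are not given in the sources used here. A second deposited table holds the authors' own comparison (log2 fold changes, p-values and false discovery rates) and was not used. GENCODE M1 (NCBIM37, mm9) named 37205 of the 37620 gene identifiers and gave exon lengths. Genes were kept by filterByExpr at a minimum of 10 counts (16264 genes), scaled by TMM and tested on the condition alone with glmQLFit and glmQLFTest of edgeR 4.0.16 (R 4.3.3), with Benjamini-Hochberg adjustment over all tested genes. The scripts were tested on simulated data. A normalized count is the count divided by the library's scaled size, times the mean of those sizes, and the standard error is the size of the log2 fold change divided by the root of F. Intervals cover 95%. The tested genes named by rule besides the 10 are those of a pathway list that passed a call rule or had the highest RPKM or the smallest p of their role. Smad4, Smad9, Dlx3 and Id4 were named outside that rule, after their values were seen. The alternatives were DESeq2 1.42.0, DESeq2's size factors, library size only, no filter, a minimum of 10 counts in each of the libraries, the replicate number as a block, and leaving out 1 library at a time. The members and lists were chosen with earlier results of these data known, and the promoter motifs after the values were seen.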

Additional observations from a re-analysis of the deposited data

How the results depend on the processing

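Across the 10 genes and 10 alternatives, 96 of 100 log2 fold changes kept their direction and their side of an adjusted p of 0.05. The side could not change where either MUT_CTCF library was left out, since 0 of all genes passed there, and few passed without a filter (29 genes). With each library left out, the log2 fold change of Bmpr2 ran from -0.35 to 0.22, that of Smad5 from -0.00095 to 0.22 and that of Smad6 from -0.20 to 0.049. The replicate numbers were only numbers here (correlation of the deviations of same-numbered libraries -0.0057 across genes). With the replicate block, 1 of the 10 genes was lower at an adjusted p under 0.05, Id3 (adjusted p = 0.0438 in edgeR, range over its alternatives 0.0438 to 0.491), and 2 of the other pathway genes were lower, Eng and Msx2 (adjusted p = 0.0337, range over its alternatives 0.0337 to 0.570). No other call among the named genes changed with the block.

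Of the other pathway genes, the count lower at an adjusted p under 0.05 was 0 in DESeq2, 0 without a filter and 0 with any library left out, where the adjusted p of Eng lay between 0.105 and 0.484. The log2 fold change of Eng stayed between -0.20 and -0.17, and where 0 of all genes passed, the lost call says nothing of Eng. A line with 1 library is then assumed to vary like the other. The count called by the study's criterion was 0 in DESeq2, 0 without a filter, 0 with at least 10 counts in every library, which removes Tll1, and 0 to 2 with 1 library left out. The log2 fold change of Gdf3 was 0.0040 with library size only. With 1 library left out, that of Gdf3 ran from -0.043 to 0.024, of Tob1 from -0.023 to 0.051, of Dusp9 from -0.012 to 0.058 and of Tcf3 from -0.11 to 0.042. The cause was not tested. Tll1, with at most 22 counts in a library, ran from -3.07 to -1.30 with 1 library left out.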
